A study of Homo sapiens with 6 samples.

Results

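The small nucleolar RNAs (snoRNAs) on the array are the genes whose symbol begins with SNORA or SNORD and a number, read by probes that carry no other symbol. They were 176 of the 18417 genes measured, 115 of box C/D (SNORD) and 61 of box H/ACA (SNORA). Their expression was studied in the established human glioblastoma line U373MG, in cells exposed for 24 hours to ET-770 (the compound 1a) at 4.83 nM, to ET-770-DR (the compound 3) at 1.70 nM or to RM, renieramycin M (the compound 2a), at 3.10 nM. All are tetrahydroisoquinoline alkaloids, and ET-770-DR is a pyridinecarbonyl derivative of ET-770. Every compound formed an experiment of its own, with 1 array of treated cells and 1 array of cells given the same amount of the vehicle dimethyl sulfoxide (DMSO), so that there were 6 arrays in 3 experiments. Nothing but the compound was said to distinguish treated from vehicle cells, and the line is a single tumour-derived culture.

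snoRNAs guide the chemical modification of other RNAs, above all ribosomal RNA, in the nucleolus. A box C/D snoRNA directs the methyltransferase fibrillarin to a ribose, and a box H/ACA snoRNA directs the pseudouridine synthase dyskerin to a uridine. Most human snoRNAs are not transcribed by themselves but lie in introns of a host gene, often one for a ribosomal protein or a long non-coding RNA, and are trimmed from the debranched intron after splicing. The array reads the labelled product of total RNA, so that a probe inside an intron can take up both the mature snoRNA and unspliced host RNA. Their shares in a signal are not known, and they cannot be told apart here. How fully RNA as short as a snoRNA was recovered and labelled was not tested.

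Values are RMA signals on a log2 scale. A change is the signal with a compound minus that with the vehicle in the same experiment, and such arrays are called a pair. The mean change over the 3 pairs was tested with limma across all genes, with the experiment as a term and Benjamini-Hochberg adjustment over the 18417 genes. A gene that rose or fell passed an adjusted p of 0.05. The compounds thus stood in as replicates of each other, and errors are the moderated standard errors of limma (SE, n = 3 pairs). Since they come from bulk RNA, fewer cells of a type and less RNA per cell cannot be told apart.

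The RM experiment stood apart from the others in its vehicle cells. Against the vehicle cells of the ET-770 experiment, 303 of all genes were lower by over 2 and 16 higher, where the vehicle cells of the ET-770-DR experiment had 22 and 0. After quantile normalization these were 90 and 83, against 2 and 3. Over all genes, the median signal was 7.97 in the DMSO array of the ET-770 experiment, 7.28 in that of the ET-770-DR experiment and 7.40 in that of the RM experiment. Levels are therefore set side by side within an experiment, and the main counts are also given without the RM experiment. VIM and CD44, which mark mesenchymal and glioma cells, lay above 98.9% of genes or more on every array. GFAP, the astrocyte filament, lay between the percentiles 37.9 and 50.7, and PTPRC, a marker of leukocytes, between 2.38 and 4.91. Of the other glial and glioma markers looked at, SOX2 lay between 91.7 and 98.6 and NES between 67.2 and 91.6. S100B lay between 51.2 and 82.4, and OLIG2 was low, between 25.8 and 32.2. The lymphoid markers CD3E and MS4A1 lay between 11.4 and 19.4 and between 3.76 and 8.99.

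snoRNAs of both classes were higher in compound-treated cells, and none was lower by the test. Of the 115 C/D snoRNAs, 50 rose and 0 fell, and of the 61 H/ACA snoRNAs, 24 rose and 0 fell, by limma. Of all genes tested, 13.1% rose and 11.2% fell. Beyond the 74 snoRNAs that rose, 102 did not pass. At an unadjusted p of 0.05, 91 were higher and 3 lower, where 6223 of the 18417 genes passed in either direction. The median of the mean changes was 0.27 over the C/D snoRNAs and 0.34 over the H/ACA snoRNAs, against 0.03 over all genes. Signals were higher with all 3 compounds for 104 snoRNAs, and 29.6% of all genes behaved so. For 24 snoRNAs every compound array lay above every DMSO array, against 3.62% of all genes.

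These calls depended on the comparison within experiments. When the experiment was left out of the model, 0 snoRNAs passed the adjusted threshold of limma, where 0.141% of all genes rose and 2% fell. At an unadjusted p of 0.05, 25 snoRNAs were higher and 0 lower, and the share of all genes at that p is not given here. Without the RM experiment 88 snoRNAs rose, among them all of the 74, against 19% of all genes. Without the ET-770 experiment 54 rose, against 6.52% of all genes, and without the ET-770-DR experiment 62, against 8.58%. The count of snoRNAs thus moved in the same direction as that of all genes.

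**Figure D1:**
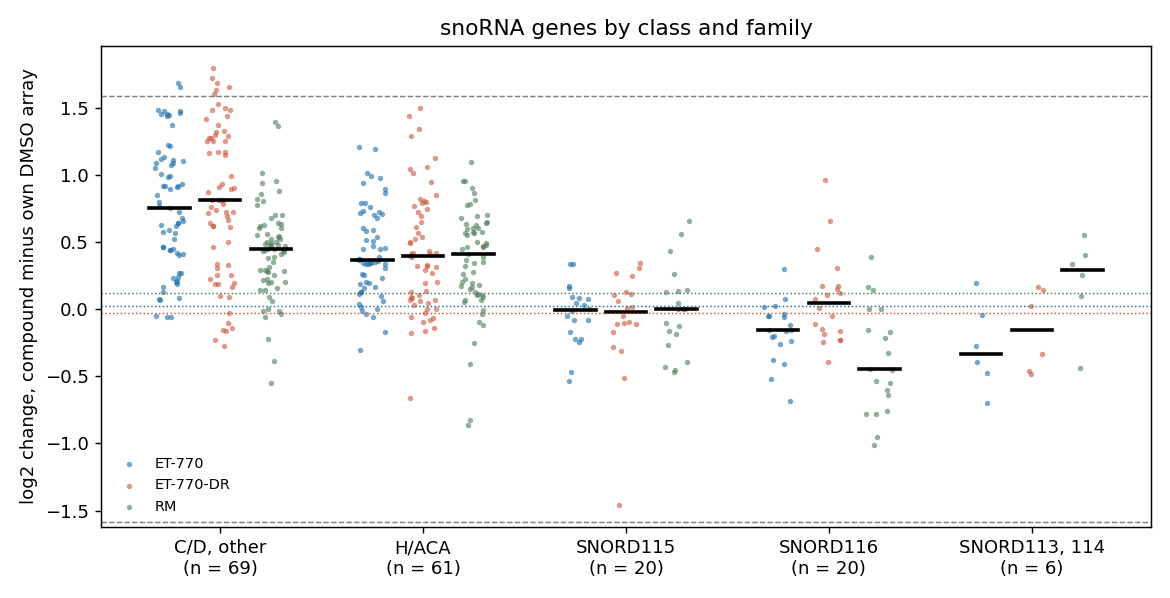
log2 change of each snoRNA (compound minus the DMSO array of its own experiment, vertical axis) by class and family, with 1 point per snoRNA and compound, a black bar at the median, a coloured dotted line at the median of all genes with that compound and dashed lines at the 3-fold and 0.3333-fold thresholds. The C/D snoRNAs outside the multicopy families have medians of 0.75, 0.81 and 0.45 with ET-770, ET-770-DR and RM, whereas the copies of SNORD115 have medians of -0.01, -0.02 and 0.00.

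With all 3 experiments in the model, the C/D snoRNAs that rose all lay outside the families that occur as tandem copies. Beyond the tandem families SNORD113, SNORD114, SNORD115 and SNORD116, 50 of 69 rose (53 without the RM experiment), and their median change was 0.71. Among the 46 copies of these families 0 rose and 0 fell by limma, and their median change was -0.11. Of them, 4 had an unadjusted p under 0.05, against 6223 of the 18417 genes. Without the RM experiment some of these copies rose and 4 fell, against 19% and 14.3% of all genes. After quantile normalization 3 copies of SNORD116 fell, against 13.2% of all genes. Of the 46 copies, 40 lay below the 25th percentile of mean signal over all genes, as did 67 of the 176 snoRNAs. The part of this low signal in the result was not tested. The copies of a family also resemble each other in sequence, and their probes may share targets.

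The host genes are shown first by the DNA around their transcription start, since many hosts belong to the class of genes whose transcripts begin with a cytidine and a run of pyrimidines, the 5′ terminal oligopyrimidine tract. Each line holds 60 bases before the annotated start and 20 bases from it, read 5′ to 3′ on the strand of the gene, from RefSeq on GRCh38.p14. Capitals mark a run of at least 5 pyrimidines that begins with C exactly at the start. These hosts were taken from 13 that hold snoRNAs with the largest changes, of which 6 carry such a run, and SNHG14 because it holds 40 that did not pass.
RABGGTB, chr1:75786196-75786275, plus strand: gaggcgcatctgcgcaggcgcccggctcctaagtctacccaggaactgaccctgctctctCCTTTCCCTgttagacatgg
RPS3, chr11:75399458-75399537, plus strand: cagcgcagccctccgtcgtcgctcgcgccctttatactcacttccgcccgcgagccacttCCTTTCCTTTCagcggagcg
ZFAS1, chr20:49278582-49278661, plus strand: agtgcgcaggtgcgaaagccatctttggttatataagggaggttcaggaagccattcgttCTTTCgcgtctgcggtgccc
SNHG5, chr6:85678714-85678793, minus strand: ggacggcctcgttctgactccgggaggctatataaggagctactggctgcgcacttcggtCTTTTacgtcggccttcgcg
SNHG4, chr5:139274041-139274120, plus strand: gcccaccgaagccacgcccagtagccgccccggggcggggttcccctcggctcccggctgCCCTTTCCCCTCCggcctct
SNHG1, chr11:62855866-62855945, minus strand: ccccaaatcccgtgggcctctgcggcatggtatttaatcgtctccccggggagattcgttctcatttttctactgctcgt
GAS5, chr1:173869026-173869105, minus strand: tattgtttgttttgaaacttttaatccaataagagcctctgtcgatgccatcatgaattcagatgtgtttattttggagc
SNHG14, chr15:24823548-24823627, plus strand: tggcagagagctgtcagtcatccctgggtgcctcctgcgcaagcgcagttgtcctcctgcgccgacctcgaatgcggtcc

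The lines do not keep the proportion among the 13 hosts, since the first 5 carry such a run and the other 3 do not at the start that the table gives, which is 1 start per gene and need not be the one used in these cells. Of the 35116 promoters in the table, 4.07% had such a run. It was found in 24 of 74 hosts of snoRNAs outside the multicopy families (32.4%), in 17 of 40 hosts with a snoRNA that rose (42.5%) and in 7 of 34 hosts with none that rose (20.6%). These shares are a description of the annotated starts, with no test.

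The snoRNAs of GAS5 rose together. GAS5 is a long non-coding RNA gene known as a host of C/D snoRNAs and for its accumulation in growth-arrested cells. All 7 measured snoRNAs of this gene rose, with mean changes between 0.93 and 1.37 and a median of 1.15. SNORD75 had the largest change of all snoRNAs. Its signal was 7.93 in DMSO and 9.58 in ET-770-treated cells, 7.93 and 9.56 in the ET-770-DR pair and 9.31 and 10.13 in the RM pair. Every compound array was above every DMSO array, although the DMSO array of the RM experiment was higher than the other DMSO arrays. The mean change was 1.37 (SE 0.17, n = 3 pairs, limma adjusted p = 0.00046).

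SNORD44, which is widely used as a reference in quantitative PCR of small RNAs, was among them. Its signal was 8.64 in DMSO and 10.12 with ET-770, went from 8.82 to 10.07 in the ET-770-DR pair and from 9.81 to 10.28 in the RM pair, without overlap between vehicle and compound. The mean change was 1.07 (SE 0.18, n = 3 pairs, limma adjusted p = 0.0025). SNORD78 and SNORD79 had changes of 1.48 and 1.44 in the ET-770 pair, 1.48 and 1.60 for ET-770-DR, and 0.50 and 0.47 for RM. SNORD74 ran from 10.81 to 11.98 in the ET-770 pair, from 11.02 to 11.92 in the ET-770-DR pair and from 10.06 to 11.42 in the RM pair, and was the member of this cluster with its largest change in the RM experiment. SNORD81 rose by 0.93 (SE 0.17) without overlap between the groups. SNORD77 rose by 1.01 (SE 0.20), but its DMSO array of the RM experiment, at 6.51, lay above the ET-770 and ET-770-DR arrays, at 5.96 and 6.09.

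SNHG1, another non-coding host, had 2 measured snoRNAs of its own, and both rose. SNORD30 was at 9.83 in DMSO and 11.29 with ET-770, at 8.48 and 9.76 in the ET-770-DR pair and at 9.60 and 10.54 in the RM pair. The groups overlapped, because the ET-770-DR array was below the DMSO array of the ET-770 experiment. SNORD28 was at 9.94 and 11.39, at 9.76 and 11.42, and at 10.38 and 10.86, without overlap. Their mean changes were 1.22 (SE 0.14) and 1.19 (SE 0.21), with limma adjusted p of 0.00024 and 0.0024. All 9 snoRNAs of GAS5 and SNHG1 passed with any one experiment left out.

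**Figure D2:**
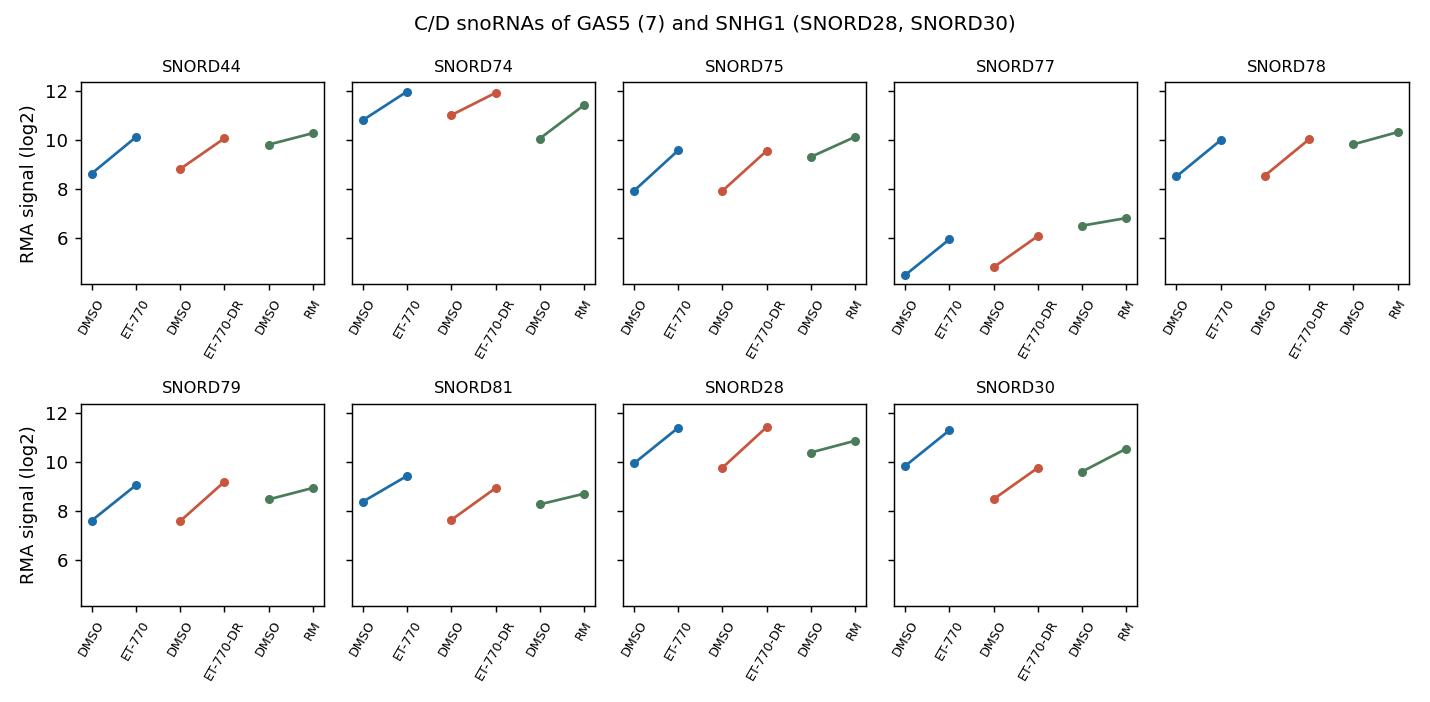
RMA signal (log2, vertical axis) of the 7 snoRNAs of GAS5 and the 2 of SNHG1 on each of the 6 arrays, with a line from the DMSO array to the compound array of the same experiment. Every line goes up, and SNORD77 and SNORD30 are the ones in which the levels of vehicle and compound arrays overlap between experiments.

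Other C/D snoRNAs with large changes came from many hosts. SNORD45C, from an intron of RABGGTB, was at 7.68 and 8.77 in the ET-770 pair, at 7.71 and 9.03 in the ET-770-DR pair and at 8.23 and 9.62 in the RM pair, and rose by 1.27 (SE 0.13, limma adjusted p = 0.00012). The vehicle and compound arrays did not overlap. In the same gene, SNORD45B rose by 0.71 (SE 0.16, limma adjusted p = 0.011) and SNORD45A had a change of 0.32 (SE 0.13, adjusted p = 0.11). SNORD45B did not pass without the ET-770 experiment (limma adjusted p = 0.058). RABGGTB itself rose by 0.51 (SE 0.15, limma adjusted p = 0.038), and did not pass without the ET-770 experiment (0.47), without the ET-770-DR experiment (0.083) or after quantile normalization (0.073).

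SNORD12C of ZFAS1 went from 8.04 to 9.52, from 7.48 to 8.85 and from 7.64 to 8.44 with ET-770, ET-770-DR and RM. Its groups did not overlap, and it rose by 1.21 (SE 0.15, limma adjusted p = 0.00043). SNORD15A, in an intron of the ribosomal protein gene RPS3, rose by 1.07 (SE 0.13), also without overlap. SNORD50B of SNHG5 rose by 1.11 (SE 0.22), and its change was 1.80 with ET-770-DR, the largest of any snoRNA with any compound. Its DMSO level in the RM experiment, 8.70, was above both other compound arrays, 7.87 and 7.47. SNORD42A of RPL23A rose by 1.08 (SE 0.20) and SNORD13P2, named as a pseudogene copy of SNORD13, by 1.16 (SE 0.14).

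SNORD1A and SNORD1B, both of SNHG16, differed in how far their calls held when an experiment was left out. SNORD1A was at 5.52 in DMSO and 7.20 with ET-770, at 5.47 and 6.76 in the ET-770-DR pair and at 7.46 and 7.24 in the RM pair. It was thus higher in 2 pairs and lower with RM. Its mean change of 0.92 (SE 0.29) had a limma adjusted p of 0.048, which was 0.12 without the ET-770 experiment, 0.11 without the ET-770-DR experiment and 0.088 after quantile normalization. Without the RM experiment, in which it was lower, SNORD1A passed. SNORD1B was higher in all 3 pairs and rose by 1.05 (SE 0.23, limma adjusted p = 0.0080). It passed with any one experiment left out and after quantile normalization (limma adjusted p = 0.030).

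Within several ribosomal protein genes, some snoRNAs passed and others did not. RPL13A holds SNORD32A, SNORD33, SNORD34 and SNORD35A, of which SNORD32A, SNORD33 and SNORD35A are known from the cellular response to lipotoxic and oxidative stress. SNORD34 rose by 0.60 (SE 0.13), SNORD32A by 0.39 (SE 0.12) and SNORD35A by 0.39 (SE 0.12). SNORD33 had a change of -0.02 (SE 0.12, limma adjusted p = 0.94), with signals of 12.61 and 12.73, 11.52 and 11.36, and 11.79 and 11.75. It was thus higher in 1 pair and lower in 2. SNORD32A and SNORD35A did not pass without the ET-770 experiment (limma adjusted p of 0.42 and 0.37), without the ET-770-DR experiment (0.086 and 0.079) or after quantile normalization (0.081 and 0.082), and SNORD34 did not pass without the ET-770 experiment (0.061).

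In RPL23A all 3 rose, between 0.83 and 1.08. In RPL3, SNORD43 rose by 0.82 (SE 0.13), whereas SNORD83A and SNORD83B had changes of 0.23 and 0.38 (limma adjusted p of 0.23 and 0.053), and the host RPL3 one of 0.04 (SE 0.12). In the nucleolin gene NCL, SNORD20, SNORD82 and the H/ACA snoRNA SNORA75 all rose, by 1.04, 0.60 and 1.04, of which SNORD82 did not pass without the ET-770-DR experiment (limma adjusted p = 0.077). NCL itself rose by 0.47 (SE 0.13, limma adjusted p = 0.029), and did not pass without the ET-770 or the ET-770-DR experiment (0.16 and 0.17).

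The 24 H/ACA snoRNAs that rose did so by up to 1.13. SNORA74A, from SNHG4, was at 7.15 in DMSO and 8.16 with ET-770, at 6.51 and 7.94 in the ET-770-DR pair and at 6.50 and 7.45 in the RM pair. All compound arrays lay above all DMSO arrays, and it rose by 1.13 (SE 0.14, limma adjusted p = 0.00036). SNORA21, in the ribosomal protein gene RPL23, went from 8.17 to 9.36, from 6.90 to 8.02 and from 9.15 to 10.10, which overlapped between experiments. It rose by 1.09 (SE 0.12, limma adjusted p = 0.00025).

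SNORA75 ranged from 6.52 to 7.16 in vehicle and from 7.09 to 8.36 in compound-treated cells. SNORA14B, in TOMM20, rose by 0.93 (SE 0.18), SNORA41, in EEF1B2, by 0.85 (SE 0.13), and SNORA28, in EIF5, by 0.85 (SE 0.18). SNORA13 rose by 0.82 (SE 0.12) and SNORA14A by 0.81 (SE 0.13). Of the H/ACA snoRNAs, 45 were higher with all 3 compounds and 2 were lower with all 3, where 20.6% of all genes were lower with all 3. The lowest mean change was that of SNORA16B, -0.36 (SE 0.17, limma adjusted p = 0.17).

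Some snoRNAs serve in the processing of ribosomal RNA, U14 besides guiding a methylation. Of these, SNORD13 (U13) and the U14 copies SNORD14C and SNORD14E were measured, and none passed. SNORD13 was at 12.97 in DMSO and 12.91 with ET-770, at 11.97 and 11.81 in the ET-770-DR pair and at 9.19 and 9.33 in the RM pair, a mean change of -0.03 (SE 0.13, limma adjusted p = 0.94). SNORD14C, in an intron of the chaperone gene HSPA8, was at 11.82 and 11.77, at 11.23 and 11.20, and at 9.32 and 9.31. In both, each compound array was within 0.16 of its own DMSO array, while the level differed by more than 2 between the ET-770 and the RM experiments. SNORD14E had a change of 0.18 (SE 0.12, limma adjusted p = 0.38).

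The tandem C/D families had low signals on average. SNORD115 and SNORD116 lie in the imprinted SNHG14 region on chromosome 15 that is tied to Prader-Willi syndrome, and SNORD113 and SNORD114 in the imprinted MEG8 region on chromosome 14. The 20 copies of SNORD115 had a median change of -0.03 and ranged from -0.52 to 0.33. The 20 copies of SNORD116 had a median of -0.22, with medians of -0.16, 0.04 and -0.45 in the ET-770, ET-770-DR and RM experiments. Of these, 7 of 20 were lower with all 3 compounds, against 20.6% of all genes.

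SNORD116-15 was the brightest copy. Its signal was 12.38 and 12.12 in the ET-770 pair, 11.82 and 11.59 in the ET-770-DR pair and 9.13 and 8.58 in the RM pair, lower in 3 of 3 pairs. Its mean change was -0.35 (SE 0.13, limma adjusted p = 0.081), and it passed after quantile normalization, together with SNORD116-13 and SNORD116-14, and with a trended variance. The other families had medians of 0.00 (SNORD113, 2 copies) and -0.12 (SNORD114, 4 copies). Their brightest copies, SNORD113-4 and SNORD114-3, had changes of -0.03 (SE 0.15) and -0.02 (SE 0.17). The brightest SNORD115 copy, SNORD115-32, was between 3.38 and 4.32 on all arrays and had a change of -0.13 (SE 0.14).

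The 3-fold threshold by which each compound was compared with its own vehicle array was seldom crossed, and 1 array per arm allows no test. With ET-770, 2 C/D snoRNAs exceeded 3-fold, SNORD1A (log2 change 1.68) and SNORD75 (1.65), where 0.233% of all genes did. With ET-770-DR, 6 C/D snoRNAs did, namely SNORD50B (1.80), SNORD1B (1.72), SNORD42A (1.68), SNORD28 (1.65), SNORD75 (1.63) and SNORD79 (1.60), where 0.51% of all genes did. With RM, 0 did, where 0.0434% of all genes did. No H/ACA snoRNA exceeded 3-fold, and no snoRNA of either class was below 0.3333-fold with any compound, against 2.15%, 2.12% and 1.36% of all genes with ET-770, ET-770-DR and RM.

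At 2-fold, 26, 34 and 4 snoRNAs were above the threshold with ET-770, ET-770-DR and RM, against 2.01%, 3.84% and 0.668% of all genes. In the opposite direction, 0, 1 and 1 were beyond 2-fold, the latter being SNORD115-41 with ET-770-DR and SNORD116-26 with RM, against 4.68%, 4.94% and 4.28% of all genes. Over the 74 snoRNAs that rose, the changes by ET-770, ET-770-DR and RM had medians of 0.89, 0.90 and 0.55. Over the H/ACA snoRNAs they were 0.37, 0.40 and 0.41. The doses and the experiments differed between compounds, so that a difference between them cannot be told apart from either.

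The changes of snoRNAs were set beside those of the genes that span them. A gene with a probe of its own was found for 82 snoRNAs outside the tandem families, in 62 host genes. Of these snoRNAs, 39 rose, against 13.1% of all genes, and 49 without the RM experiment, against 19%. The host of the 39 rose in 14 cases, fell in 2 and did not pass in 23. In 60 of the 82 pairs the change of the snoRNA was above that of its host, with a median of 0.37 for the snoRNAs and 0.18 for the hosts. The C/D pairs had medians of 0.66 and 0.14, and the H/ACA pairs of 0.33 and 0.18. Hosts with several snoRNAs enter more than once. Of the 62 hosts, 15 rose and 5 fell, against 13.1% and 11.2% of all genes. Without the ET-770, the ET-770-DR or the RM experiment 7, 8 and 24 of them rose, against 6.52%, 8.58% and 19% of all genes.

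RPL23A showed snoRNAs that rose within a gene that did not pass. The host had a change of 0.11 (SE 0.12, limma adjusted p = 0.65) and its snoRNAs SNORD4A, SNORD4B and SNORD42A rose by 0.83, 0.85 and 1.08. RPS3 had a change of 0.23 (SE 0.12, limma adjusted p = 0.24), beside 1.07 and 0.82 for SNORD15A and SNORD15B. The opposite arrangement was seen in TBRG4, which rose by 0.56 (SE 0.13, limma adjusted p = 0.014), while SNORA5A, SNORA5B and SNORA5C had changes of 0.32, -0.01 and 0.12 and none passed. TBRG4 itself did not pass without the ET-770-DR experiment (limma adjusted p = 0.072). SNHG17 rose by 0.93 (SE 0.17), and its snoRNAs SNORA71A and SNORA71C rose by 0.45 and 0.37, although neither passed without the ET-770 experiment (limma adjusted p of 0.16 and 0.36) or the ET-770-DR experiment (0.095 and 0.17), nor SNORA71C after quantile normalization (0.083).

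In 2 cases the signal of a snoRNA rose while that of the gene that spans it fell. SIPA1L1 went from 10.81 to 7.43 in the ET-770 pair, from 9.84 to 7.04 in that of ET-770-DR and from 9.17 to 6.97 in that of RM, a mean change of -2.80 (SE 0.20, limma adjusted p = 1.8e-05). SNORD56B, within its span, went from 3.43 to 3.86, from 3.67 to 4.31 and from 2.90 to 3.46 and rose by 0.54 (SE 0.12, limma adjusted p = 0.0097), from a low signal, and did not pass without the ET-770 experiment (adjusted p = 0.066). The large gene USP34, which encodes a deubiquitinase, fell by 1.94 (SE 0.13), and SNORA70B within it rose by 0.69 (SE 0.14, limma adjusted p = 0.0061), from 5.53 to 5.89, from 5.29 to 6.12 and from 3.93 to 4.83. SNORA36C and SNORA70F, in the genes AAK1 and COBLL1 that fell by 1.32 and 1.14, had changes of 0.00 and -0.13 and did not pass. Whether these snoRNAs lie on the strand of the gene was not tested. Nor was it tested whether their probes read only RNA from within that gene, and not from like copies elsewhere.

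**Figure D3:**
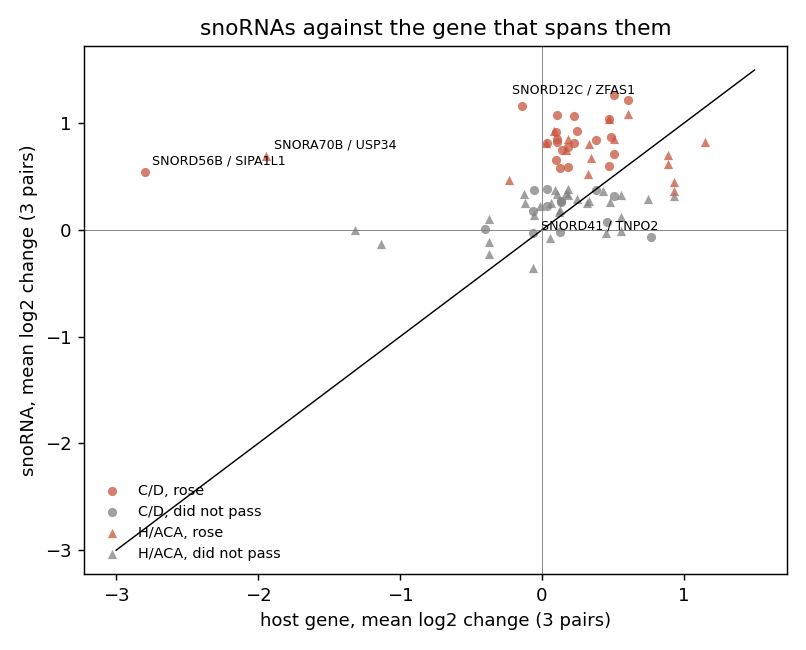
Mean log2 change over the 3 pairs of each snoRNA (vertical axis) against that of the gene that spans it (horizontal axis), for 82 snoRNAs outside the tandem families, with circles for C/D and triangles for H/ACA, red where the snoRNA rose and grey where it did not pass; the black line marks equal change. Of the 82 points 60 lie above the line, and SNORD56B and SNORA70B lie far to the left of the others that rose.

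The proteins of snoRNA particles and of snoRNA maturation were looked at by lists. Of the core proteins of C/D particles, FBL, the methyltransferase fibrillarin, and NOP58 were measured, and their changes of 0.22 (SE 0.12) and 0.55 (SE 0.18) did not pass (limma adjusted p of 0.26 and 0.057). NOP58 passed without the RM experiment, with a change of 0.82. Of the 4 H/ACA core proteins, DKC1, which encodes dyskerin, rose by 0.62 (SE 0.17, limma adjusted p = 0.027), with signals of 9.77 and 10.54, 9.33 and 10.31, and 10.84 and 10.93. It did not pass without the ET-770 or the ET-770-DR experiment (limma adjusted p of 0.12 and 0.13). NHP2, NOP10 and GAR1 had changes of 0.30, 0.16 and 0.33, which did not pass, and of these NHP2 and GAR1 passed without the RM experiment, with changes of 0.38 and 0.41.

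Of 13 assembly factors, 5 rose and 0 fell, against 13.1% and 11.2% of all genes. The H/ACA assembly factor NAF1 rose by 1.02 (SE 0.18) and NOLC1, a nucleolar and Cajal body phosphoprotein that binds snoRNA particles, by 0.99 (SE 0.16), with limma adjusted p of 0.0027 and 0.0018. The others were ZNHIT3, NOPCHAP1 and TGS1, with changes of 0.44, 0.61 and 0.51. Without the ET-770, the ET-770-DR or the RM experiment, 2, 3 and 10 of the 13 rose, against 6.52%, 8.58% and 19% of all genes.

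Of 17 factors of end trimming, debranching and the RNA exosome, 7 rose and 2 fell, where 13.1% and 11.2% of all genes did, so that the share that fell was near that of all genes. DBR1, the enzyme that opens intron lariats, was at 7.18 in DMSO and 8.59 with ET-770, at 7.08 and 8.75 in the ET-770-DR pair and at 8.04 and 8.68 in the RM pair. All compound arrays lay above all DMSO arrays, and it rose by 1.24 (SE 0.19, limma adjusted p = 0.0011). The exosome subunits EXOSC2, EXOSC3, EXOSC4, EXOSC5 and EXOSC9 and the nuclease DIS3 rose by 0.53 to 0.89, with limma adjusted p of up to 0.045. EXOSC3 and EXOSC4 did not pass without the ET-770 experiment (limma adjusted p of 0.26 and 0.071) or the ET-770-DR experiment (0.20 and 0.078). EXOSC5 did not pass without the ET-770 experiment (0.051), nor DIS3 without the ET-770-DR experiment (0.068), and EXOSC3 did not after quantile normalization (0.058). PARN, a deadenylase that trims the 3′ ends of H/ACA RNAs, was at 10.09 and 8.45, at 9.75 and 8.50, and at 10.11 and 8.49, and fell by 1.51 (SE 0.13, limma adjusted p = 5.9e-05). MTREX, the helicase that feeds RNA to the nuclear exosome, fell by 0.70 (SE 0.13, limma adjusted p = 0.0037). Without the ET-770, the ET-770-DR or the RM experiment, 4, 4 and 12 of the 17 rose, against 6.52%, 8.58% and 19% of all genes. Of 40 measured genes from a list of hosts, 9 rose and 0 fell, against 13.1% and 11.2% of all genes, with a median change of 0.18. Without the ET-770, the ET-770-DR or the RM experiment 3, 4 and 17 of them rose, against 6.52%, 8.58% and 19% of all genes. The counts without the ET-770 or the ET-770-DR experiment were thus near the share of all genes. After quantile normalization 8 rose and 1 fell, against 11.4% and 13.2% of all genes.

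A group of snoRNAs differed between the vehicle arrays more than with any compound. Of the C/D snoRNAs, 9 had a signal in the DMSO array of the RM experiment that was lower by over 2 than in both other DMSO arrays, which is 7.83% of them, and of the H/ACA snoRNAs 3, which is 4.92%, against 0.282% of all genes. They were SNORD41, SNORD13, SNORD13P3, 6 copies of SNORD116, SNORA71D, SNORA23 and SNORA3A. SNORD13 and SNORD13P3 had an identical change in the RM pair, 0.14. Their changes were also close in the ET-770 pair, at -0.06 and -0.06, and in the ET-770-DR pair, at -0.16 and -0.14. Both may therefore not be separate readings, nor may the copies of SNORD116, and the C/D share may count the same RNA repeatedly. Whether their probes share targets was not tested. SNORD41 was at 12.40, 11.43 and 7.86 in the DMSO arrays of the ET-770, ET-770-DR and RM experiments, and at 12.47, 11.16 and 7.86 in the compound arrays. SNORA71D was at 12.41, 11.99 and 8.68 in vehicle cells and at 12.48, 12.19 and 9.38 in compound-treated cells. In these 12 snoRNAs the compound array of the RM experiment was low with its vehicle array, and none of them rose or fell. After quantile normalization of the 6 arrays there were 10 C/D and 3 H/ACA snoRNAs of this kind, against 0.266% of all genes. In the opposite direction, SNORD60 was higher by over 2 in the DMSO array of the RM experiment than in both others, against 0.076% of all genes. After quantile normalization, SNORD1A, SNORD45B, SNORD50B, SNORD60 and SNORA33 were so, against 0.342%. The remaining 164 snoRNAs included all 74 that rose.

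**Figure D4:**
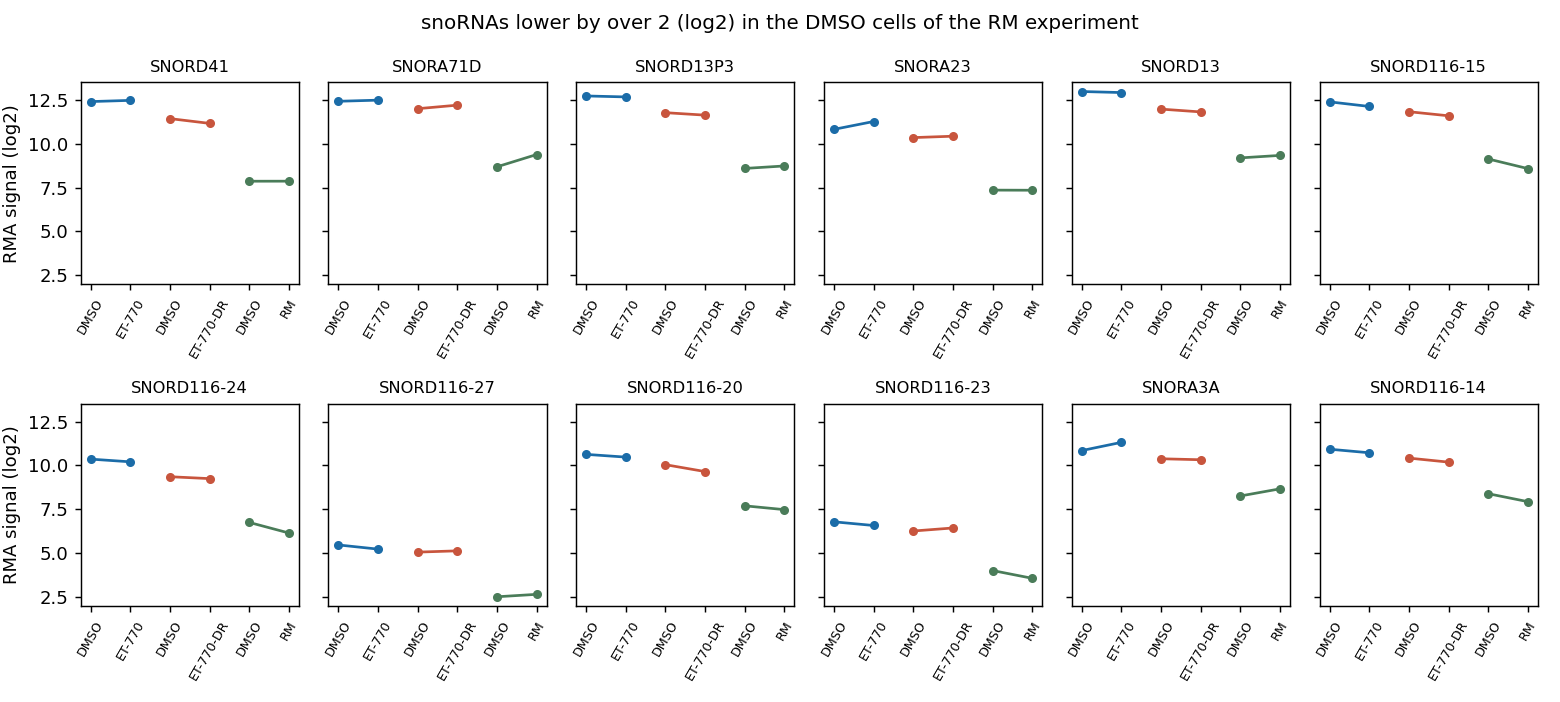
RMA signal (log2, vertical axis) on each of the 6 arrays for the 12 snoRNAs whose signal in the DMSO array of the RM experiment was lower by over 2 than in both other DMSO arrays, with a line from the DMSO array to the compound array of each experiment. In each panel both arrays of the RM experiment lie below the other 4, and the lines within an experiment are nearly flat beside this step.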

How the data were processed

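Gene expression of U373MG cells was measured on 6 Human Gene 1.0 ST arrays. The deposited values are log2 signals made by the authors with RMA, from scanned arrays, in Affymetrix Expression Console. Whether the 3 experiments were normalized together is not given in the sources used here. The array number limits the precision, and nothing says that the arrays of a kind came from separately grown cultures beyond the independence of the experiments.

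Of 33297 probes, 19460 with 1 symbol in the platform annotation were averaged per gene (18417 genes), and 1754 with several symbols and 12083 with none were left out. The snoRNAs stood on 179 probes. SNORA10 and SNORA15 had several probes, all of which were higher with every compound. The probes of SNORA10 had identical changes, as did probes 2 and 3 of SNORA15, so that these cannot be taken as separate readings. Of the 258 snoRNA symbols in the annotation, 82 stood only on probes with several symbols. All 176 symbols matched the RefSeq gene table of GRCh38.p14, from which the spanning host gene was taken. That table gives no strand, so the strand was not considered, which differs from the plan. Promoters came from RefSeq.

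The mean change over the pairs came from limma 3.58.1 (R 4.3.3, experiment and treatment as terms, eBayes without trend, two-sided), adjusted over all genes at 0.05, and the fit was tested on simulated data. Folds past 3 or 0.3333 per compound had no test. The labels pair each compound with its own DMSO array. Deviations from the group means over 18417 genes correlated at 0.83, 0.69 and 0.82 within the ET-770, ET-770-DR and RM experiments. Between experiments they correlated at -0.68 to 0.24. Deviations from a mean of 3 arrays cancel out, which by itself lowers the correlations between experiments. Other steps used Python 3.11.15, pandas 2.3.3, numpy 2.4.6 and matplotlib 3.10.9.

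Named are the 12 C/D and 8 H/ACA snoRNAs with the largest changes that passed, those past 3-fold, those of ribosomal RNA processing, those of GAS5 and SNHG1, the core proteins, hosts with 3 or more snoRNAs and the brightest copy of each tandem family. Other names were chosen after their values were seen. The snoRNAs of 1 such host are not reported here by name. The snoRNAs and the lists were chosen with earlier results of these data known. Alternatives were no term for the experiment, quantile normalization, leaving out each experiment, the brightest probe, a filter on dim genes, a variance trend, the mean of the DMSO arrays as control, a 2-fold threshold and leaving out the tandem families. Fitting every probe by itself was chosen after seeing the data.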

Additional observations from a re-analysis of the deposited data

Results flagged for a closer look

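Probes that carry a snoRNA symbol beside other symbols were not used above, and signals higher than in the vehicle cells were seen on them. When every probe was fitted by itself with limma, 22 of these 74 probes rose and 0 fell, where 7.13% of all 33297 probes rose and 5.39% fell. At an unadjusted p of 0.05, 40 passed, 2 of them lower, and the share of all probes at that p is not given here. Their median change was 0.34, with a range from -0.41 to 1.64. Among them, 6 of 6 probes that carry SNHG1 rose, with changes from 0.71 to 1.64, and 2 of 3 that carry GAS5 rose, with changes from 0.39 to 1.06 over the 3. Such a probe cannot tell the host transcript from its snoRNA.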

How the results depend on the processing

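Among the 74 snoRNAs that rose, the mean change kept its sign in every setting in which they were tested. Most of these settings could not have turned it. Dropping the experiment term, the variance trend and the filter on dim genes leave a mean change as it is. With ET-770 and ET-770-DR all 74 were higher, and with RM 72, so that leaving out an experiment could turn few signs. Without a replicate block for the experiment, 0 C/D and 0 H/ACA snoRNAs passed the adjusted threshold of limma, where 0.141% of all genes rose. At an unadjusted p of 0.05, 25 were higher and 0 lower, and the share of all genes at that p is not given here. None of the 25 named snoRNAs that rose kept its call. With the block and all experiments but one, 37 to 55 C/D snoRNAs rose and 1 to 4 fell, with medians from 0.23 to 0.33, and 17 to 33 H/ACA snoRNAs rose and 0 fell, with medians from 0.34 to 0.38. The 4 that fell without the RM experiment were SNORD114-2, SNORD114-26, SNORD115-41 and SNORD116-25. Quantile normalization left 67 of the 74, let 3 C/D snoRNAs fall, and gave medians of 0.24 (C/D) and 0.29 (H/ACA). By compound it gave 3 C/D snoRNAs over 3-fold with ET-770-DR, C/D medians of 0.25 and 0.17 for ET-770-DR and RM, and H/ACA medians of 0.33, 0.36 and 0.35 with ET-770, ET-770-DR and RM. With a variance trend 1 C/D snoRNA fell. Keeping genes above the 25th percentile of mean signal left 109 snoRNAs, of which 63 rose against 19.3% of genes, with a C/D median of 0.68, and of 0.72, 0.77 and 0.43 by compound. Without the tandem families the C/D median was 0.71. Against the mean over all 3 DMSO arrays, 7, 2 and 7 C/D snoRNAs were over 3-fold with ET-770, ET-770-DR and RM, 10 were below 0.3333-fold with RM, and the medians were 0.81, 0.16 and 0.056. For H/ACA snoRNAs these were 2, 1 and 1 over 3-fold, 2 below with RM, and medians of 0.82, 0.12 and 0.13. A change against this control also holds the differences between the DMSO arrays. Their medians over all genes were 7.97, 7.28 and 7.40 in the ET-770, ET-770-DR and RM experiments. The shares and medians of all genes with this control are not given here, so these counts cannot be read as particular to snoRNAs. A 2-fold threshold gave 23, 26 and 3 C/D snoRNAs higher and 1 lower with each of ET-770-DR and RM, and 3, 8 and 1 H/ACA snoRNAs higher. The cause of these shifts was not tested.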

Other observations

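Other small RNAs were set beside the snoRNAs after the values were seen, and no test was made of the groups. The small Cajal body RNAs (SCARNA), which guide the modification of spliceosomal RNAs, had 5 of 16 that rose and 0 that fell by limma, where 13.1% of all genes rose and 11.2% fell, with a median change of 0.37 and a range from -0.05 to 1.00. Of 189 microRNA genes (MIR), 6 (3.17%) rose and 4 fell, with a median of -0.01, and 122 of them lay below the 25th percentile of mean signal over all genes. Of 15 genes of the RNU symbols, which are small nuclear RNAs for the most part, 1 (6.67%) rose and 0 fell, with a median of 0.19.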
